A study of Saccharomyces cerevisiae with 18 samples.

Results

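Transcript levels of the budding yeast genes that make amino acids other than arginine and the sulfur amino acids were examined in aged and young cells of 3 genotypes. The set holds 52 of the 7118 features in the deposited count table, chosen by gene symbol: enzymes of 11 pathway groups and GCN4, the gene of their main activator. All 52 passed the filter on low counts, and 0 of them lay under 1 CPM (counts scaled by library size) in every library, so none was set aside as a deleted strain marker.
The 18 Saccharomyces cerevisiae samples form 6 groups of 3. Aged msn2 msn4, aged msn2 and aged WT cells came first from cultures in the medium below, had biotin coupled to their surface, were bound to magnetic beads, and were collected after 24 h in a Ministat Aging Device, in which medium flows past the held mother cells. Young msn2 msn4, young msn2 and young WT cells came from exponential cultures and served as the non-aged controls. The double mutant carries msn2::HphNT1 and msn4::NatNT2, the single mutant carries msn2::HphNT1, and WT carries neither. All 6 groups share MAT alpha (written MAT@ in the labels) and synthetic complete medium made with YNB that lacks biotin, with 2% glucose, 2% MMP, DAPA and pH 4.5. Each genotype is 1 strain, and whether the 3 replicates are independent cultures is not given, and p-values then reflect only how these samples scatter, which may be technical. The aging device cannot be told apart from age, nor can bead handling, which the sources used here do not describe for young cells.
In this yeast, amino acid synthesis is regulated both in common and pathway by pathway. Gcn4 is a bZIP transcription factor that binds the motif TGACTCA upstream of many of these genes, and starvation for amino acids raises it mainly through translation, by way of the kinase Gcn2 and short reading frames ahead of its own. Leu3 binds a separate motif ahead of leucine and branched-chain genes and is switched on by a leucine pathway intermediate, and GATA factors such as Gln3 act on genes of nitrogen use. Msn2 and Msn4 are zinc finger activators of the general stress response that bind AGGGG elements.
Total counts per library were 4078400 to 7136185 in aged msn2 msn4 cells, the shallowest group, and 25768602 to 41649952 in the other 15 libraries. MSN2 stood at 4.28, 4.11 and 33.4 CPM (means of 3) in aged msn2 msn4, msn2 and WT cells, and at 3.57, 4.29 and 41.7 CPM in the young groups in that order. MSN4 stood at 13.4, 84.1 and 51.5 CPM in the aged groups and at 21.4, 50.6 and 42.6 CPM in the young groups, and neither gene was at 0 in the strains labelled as its deletion. MSN2 was 7.97-fold and 8.14-fold lower than WT in aged msn2 msn4 and msn2 cells and 11.8-fold and 9.74-fold lower in young ones, while MSN4 was 3.81-fold lower in aged and 2.0-fold lower in young msn2 msn4 cells. The genes HIS3, LEU2, LYS2, TRP1, URA3 and ADE2, which are often deleted as strain markers, all had group means of at least 22.2 CPM. Summed levels of 4 alpha-cell markers were 3613 to 6115 CPM and those of 6 a-cell markers 31.7 to 55.4 CPM, and no marker was at 0 in every library. By chi-square per degree of freedom of their counts over genes, 4 libraries stood apart from both others of their group. They included aged replicate 3 of msn2 (85.1 and 99.8, against 12.5 between the others) and young replicate 2 of msn2 (38 and 44, against 12.1). The remaining ones were young replicate 3 of msn2 msn4 (90.5 and 81.5, against 14.5) and young replicate 2 of WT (103 and 65.6, against 27.7). Counts without them are given beside some of the results they bear on, but not all. Because whole populations were sequenced, fewer cells of a type and less RNA per cell cannot be told apart.
The 500 bases ahead of the start codon were searched on both strands of the RefSeq R64 genome. The Gcn4 motif TGACTCA stood in 23 of 52 members (44.2%), against 241 of 6006 genes with such a window (4.01%). Its core TGACTC, which every TGACTCA match also contains, stood in 33 members (63.5%), against 12.7% of all genes. The Leu3 motif (CCGG on both sides of 2 free bases) stood in 5 members (9.62%), namely LEU1, ILV2, ILV5, BAT1 and GDH1, against 16 of all genes (0.266%). The motif GATAAG, known to bind factors such as Gln3, stood in 18 members (34.6%), against 22.8% of all genes, and the Msn2 and Msn4 element AGGGG in 14 members (26.9%), against 34.1%. These are matches of letters only. Sites are shown for the 7 members with a Gcn4 motif that rose most in aged WT cells, for the 3 with that motif that fell, so that both can be read side by side, and for the 5 with a Leu3 motif. Each is given 5′ to 3′ on the strand of the gene, with the matched motif in capitals, as TGACTCA or its reverse complement. Sites of members that were higher in aged WT cells:
BAT1 (chrVIII:517351-517377, plus strand): tgccttcttaTGACTCAaaattctatt
ILV3 (chrX:466327-466353, minus strand): cctctccagaTGACTCAgtaatatagt
LEU1 (chrVII:478937-478963, minus strand): ttactctagaTGACTCAgtttagtctg
LEU4 (chrXIV:426839-426865, minus strand): tacgtgtaagTGACTCAgttctttcaa
LYS1 (chrIX:420970-420996, minus strand): actaagtcgaTGAGTCAaaaaagactc
HIS7 (chrII:716680-716706, minus strand): aaaaaaaaatTGAGTCAtatcgtagct
HIS4 (chrIII:68516-68542, minus strand): ccatgcacagTGACTCAcgttttttta
Sites of the 3 members with this motif that were lower in aged WT cells:
HIS1 (chrV:265953-265979, minus strand): agcttccaagTGAGTCAcctctaccgt
HOM2 (chrIV:770163-770189, plus strand): aagcattgatTGACTCAttttcctctg
ASN1 (chrXVI:822383-822409, plus strand): atgtaacattTGACTCAttctgtaaac
Leu3 motif matches:
LEU1 (chrVII:478852-478877, minus strand): cgaaaattCCGGGACCGGcgaaattt
ILV2 (chrXIII:483608-483633, plus strand): ggagcctgCCGGTACCGGcttggctt
ILV5 (chrXII:839613-839638, minus strand): ggtctcctCCGGTACCGGttctgcca
BAT1 (chrVIII:517377-517402, plus strand): tgtgtttgCCGGTACCGGcctttaag
GDH1 (chrXV:1043429-1043454, minus strand): ccaatgcgCCGGAACCGGcccatgca
The Gcn4 motif was found in 14 of the 32 members higher in aged WT cells (43.8%), in 3 of the 8 lower ones (37.5%) and in 6 of the 12 that did not pass the test (50%). The AGGGG element stood in 11 of the 32 higher members (34.4%), in 0 of the 8 lower ones and in 3 of the 12 that did not pass (25%), against 34.1% of all genes. Whether either motif bears on the change with age was not tested.

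**Figure D1:**
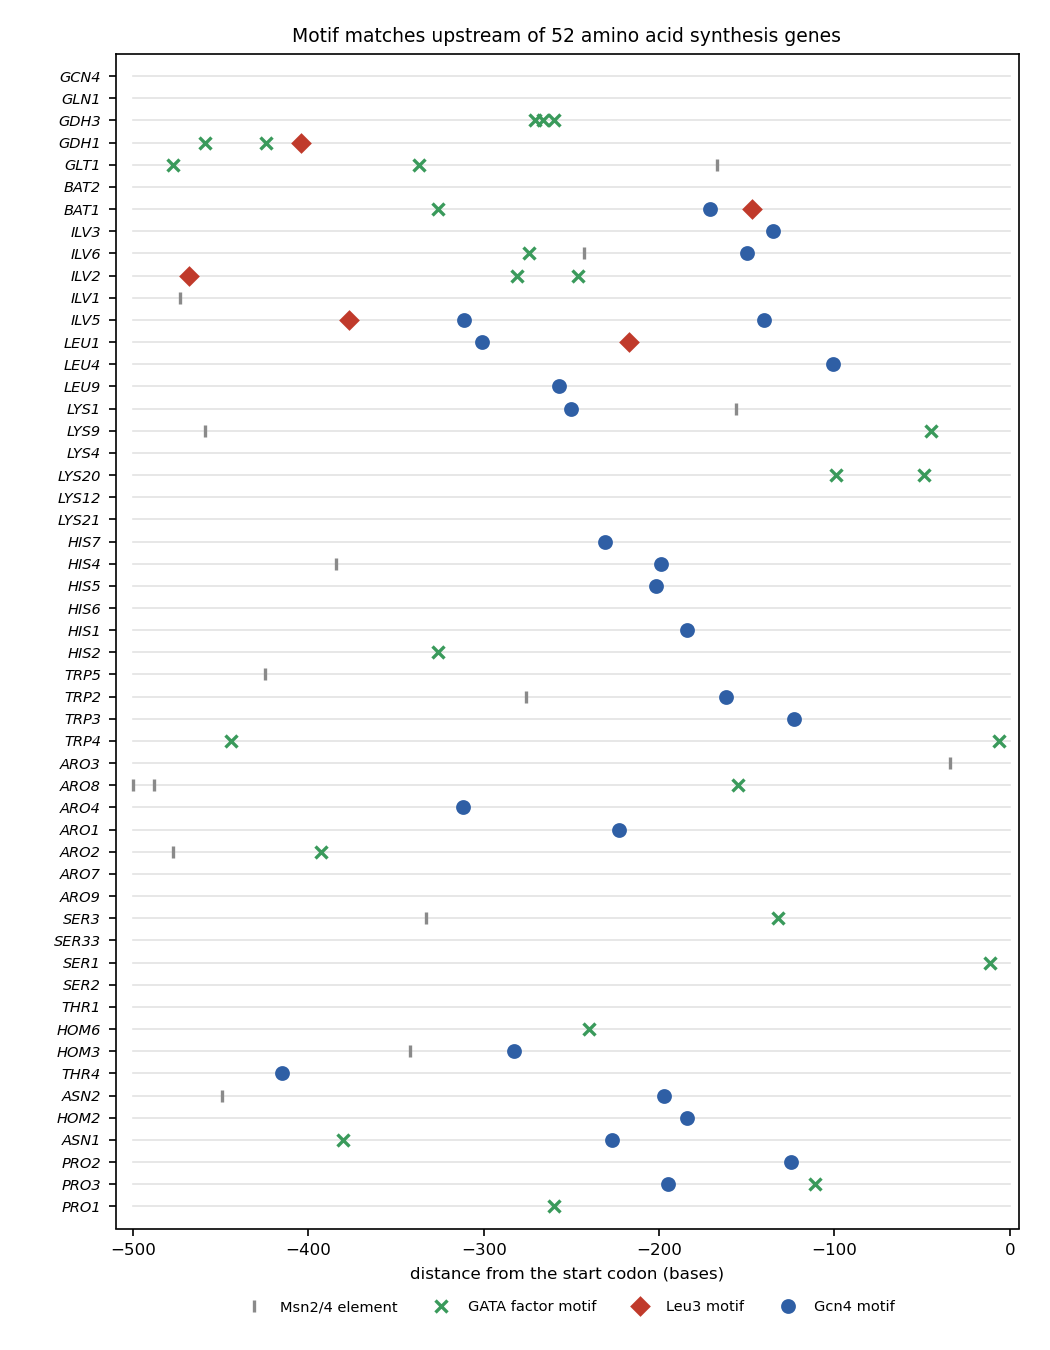
Matches of 4 motifs within 500 bases ahead of the start codon of each of the 52 genes, which are ordered by pathway; the horizontal axis is the distance from the start codon in bases. Blue circles, the Gcn4 motif, lie in 23 genes and red diamonds, the Leu3 motif, in 5.

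Summed over the 52 members, levels were 10617 ± 313 CPM in aged msn2 msn4 cells, 9284 ± 660.1 CPM in aged msn2 cells and 9055 ± 265 CPM in aged WT cells (mean ± SD, n = 3 each; CPM use TMM scaling factors). The young sums were 8767 ± 307 CPM in msn2 msn4, 7800.4 ± 73.3 CPM in msn2 and 7636 ± 141 CPM in WT cells. In each strain the 3 aged sums lay above the 3 young sums. Per kilobase of coding length, levels in young WT cells ranged widely, with HIS1 highest at 736 CPM per kb, then GCN4 at 720.1 and ILV5 at 575, and with ARO9 lowest at 5.31 and GDH3 next at 7.32. In aged WT cells the order at the top was GCN4 (899 CPM per kb), ILV5 (642), HIS1 (533), HOM6 (504) and GLN1 (436).
Aged cells were compared with young cells within each strain. Most of these genes were higher in aged cells, and BAT1, GDH1, SER3 and ILV3 rose by over 1 on the log2 scale in every strain. A smaller group (HIS2, TRP4, SER2, HOM2 and ASN1) was lower in all 3 strains. Calls are from edgeR's two-sided quasi-likelihood test at a Benjamini-Hochberg adjusted p under 0.05 across 6833 genes, and all differences are log2 fold changes ± SE. In msn2 msn4 cells 32 members rose and 5 fell, while 61.2% of all genes tested were called (31.2% higher and 29.9% lower). In msn2 cells 30 rose and 8 fell, against 69.6% of all genes (36.6% higher and 33% lower). In WT cells 32 rose and 8 fell, against 63.9% of all genes (33.3% higher and 30.6% lower). Against these shares, 71.2%, 73.1% and 76.9% of members were called at all in msn2 msn4, msn2 and WT cells, and 61.5%, 57.7% and 61.5% were called higher. The median difference over the 52 members was 0.36, 0.24 and 0.32 in those strains, while the median over all genes was 0.034, 0.03 and 0.031.
The split between rises and falls depended on the scaling. When libraries were scaled by their totals alone, the all-gene median moved by 0.43 in msn2 msn4, 0.59 in msn2 and 0.50 in WT cells, and members then split into 45 higher and 0 lower, 47 and 0, and 46 and 1. Of 6833 genes, 4104 were then higher and 827 lower in msn2 msn4, 4927 and 645 in msn2, and 4753 and 598 in WT. Without aged replicate 3 of msn2, 30 members were higher and 7 lower with age in msn2. Without young replicate 2 of msn2, 32 members were called in msn2, 6 of them lower. The split was 32 and 6 in msn2 msn4 without its young replicate 3, and 29 and 6 in WT without its young replicate 2. Of 11 markers of newborn daughter cells, 4 were higher and 2 lower in aged than in young msn2 msn4 cells, 2 and 4 in msn2 and 7 and 1 in WT. Of 6 a-cell markers, 4 were higher in aged msn2 msn4 and 3 in aged msn2 and in aged WT cells, with 0 lower, and of 4 alpha-cell markers 0 were higher and 3 lower in msn2 msn4, 0 and 4 in msn2, and 1 and 2 in WT. Alpha-cell sums were 4107 to 4542, 3812 to 4199 and 3613 to 3924 CPM in aged msn2 msn4, msn2 and WT cells, against 5744 to 6081, 5853 to 6115 and 4585 to 5671 CPM in young ones. The a-factor gene MFA1 rose by 3.29, 1.98 and 1.26 and the alpha-factor gene MF(ALPHA)2 differed by -1.72, -2.04 and -1.57 in that order. The part of these markers in the results was not tested. Falls named below are therefore falls relative to the typical gene. Between strains, 29 members were called higher in all 3, 5 lower in all 3, 8 in none (HIS6, LEU9, ILV5, TRP3, ARO2, SER1, HOM6 and THR4), and 0 in opposite directions. The shares of all genes with these patterns are not given here, so these 4 counts have no background and do not set members apart from other genes. Across the 52 members, which are not independent replicates, the age effects of msn2 and WT had a Pearson correlation of 0.912, those of msn2 msn4 and WT 0.849, and those of msn2 msn4 and msn2 0.826; across all genes tested the values were 0.871, 0.798 and 0.846.

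**Figure D2:**
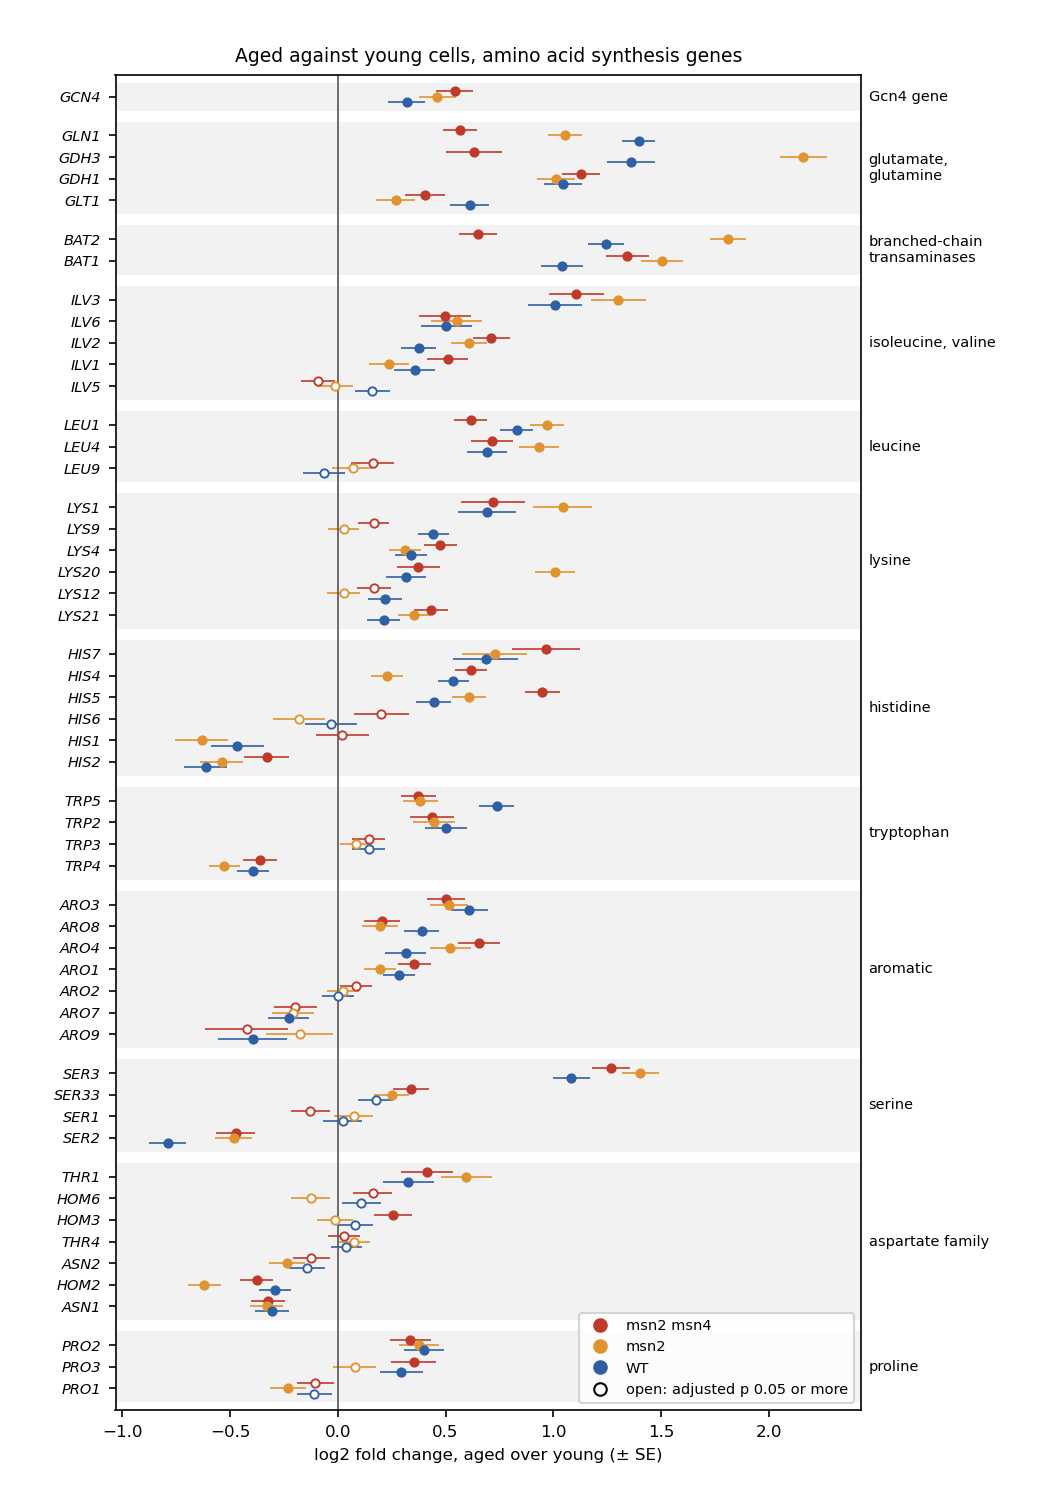
Log2 fold change of aged over young cells (horizontal axis, ± SE) for the 52 genes, grouped by pathway and drawn for msn2 msn4 (red), msn2 (orange) and WT (blue); filled points passed the test. Most points lie right of 0, all 12 points of the 4 glutamate and glutamine genes included, while HIS2, TRP4, SER2, HOM2 and ASN1 lie left of 0 in every strain on this TMM scale, though with library totals TRP4 and ASN1 do so in none, HIS2 and HOM2 in 1 and SER2 in 2.

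Genes of glutamate and glutamine synthesis, which bring ammonium into amino acids, all rose with age in every strain. GLN1 encodes glutamine synthetase, which joins ammonium to glutamate. GLN1 (chrXVI:642208-643320) stood at 456, 474 and 498 CPM in aged msn2 msn4 cells, 567, 602 and 513 CPM in aged msn2 cells and 476, 477 and 501 CPM in aged WT cells. Young GLN1 levels were 303, 318 and 344 CPM in msn2 msn4, 269, 263 and 279 CPM in msn2 and 185, 178 and 189 CPM in WT cells. All 9 aged libraries lay above all 9 young ones, and among young cells the deletion strains lay above WT. The rise with age was 0.57 ± 0.078, adjusted p = 4.55e-06 in msn2 msn4, 1.05 ± 0.078, adjusted p = 8.12e-10 in msn2 and 1.40 ± 0.079, adjusted p = 1.78e-11 in WT cells. GDH1 encodes the main glutamate dehydrogenase that uses NADPH to form glutamate. GDH1 (chrXV:1041678-1043042) stood at 278, 296 and 293 CPM in aged msn2 msn4 cells, 249.6, 248 and 216 CPM in aged msn2 cells and 212, 212 and 223 CPM in aged WT cells. Young GDH1 levels were 125, 126 and 145 CPM in msn2 msn4, 114, 109 and 131 CPM in msn2 and 112, 99.6 and 102 CPM in WT cells. Again no aged library overlapped a young one, and the rises of 1.13 ± 0.088, 1.01 ± 0.087 and 1.04 ± 0.087 in msn2 msn4, msn2 and WT were close to each other. GDH3 encodes an isoenzyme of Gdh1 known for use on carbon sources other than glucose. GDH3 (chrI:31567-32940) stood at 14.1, 18.4 and 17 CPM in aged msn2 msn4 cells, 52, 45.6 and 47.8 CPM in aged msn2 cells and 24.9, 27.5 and 25.1 CPM in aged WT cells. Young GDH3 levels were 10.1, 9.93 and 11.6 CPM in msn2 msn4, 12.4, 9.15 and 10.9 CPM in msn2 and 9.25, 9.98 and 10.9 CPM in WT cells. Young levels overlapped among strains, whereas the 3 aged groups were apart, with msn2 highest, WT between and msn2 msn4 lowest. GDH3 rose by 0.63 ± 0.13, adjusted p = 3.28e-04 in msn2 msn4, 2.16 ± 0.11, adjusted p = 2.45e-12 in msn2 and 1.36 ± 0.11, adjusted p = 4.85e-09 in WT cells. GLT1, the gene of glutamate synthase, rose by 0.41, 0.27 and 0.61 in the same order; the msn2 call was lost without young replicate 2 or aged replicate 2 of msn2.

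**Figure D3:**
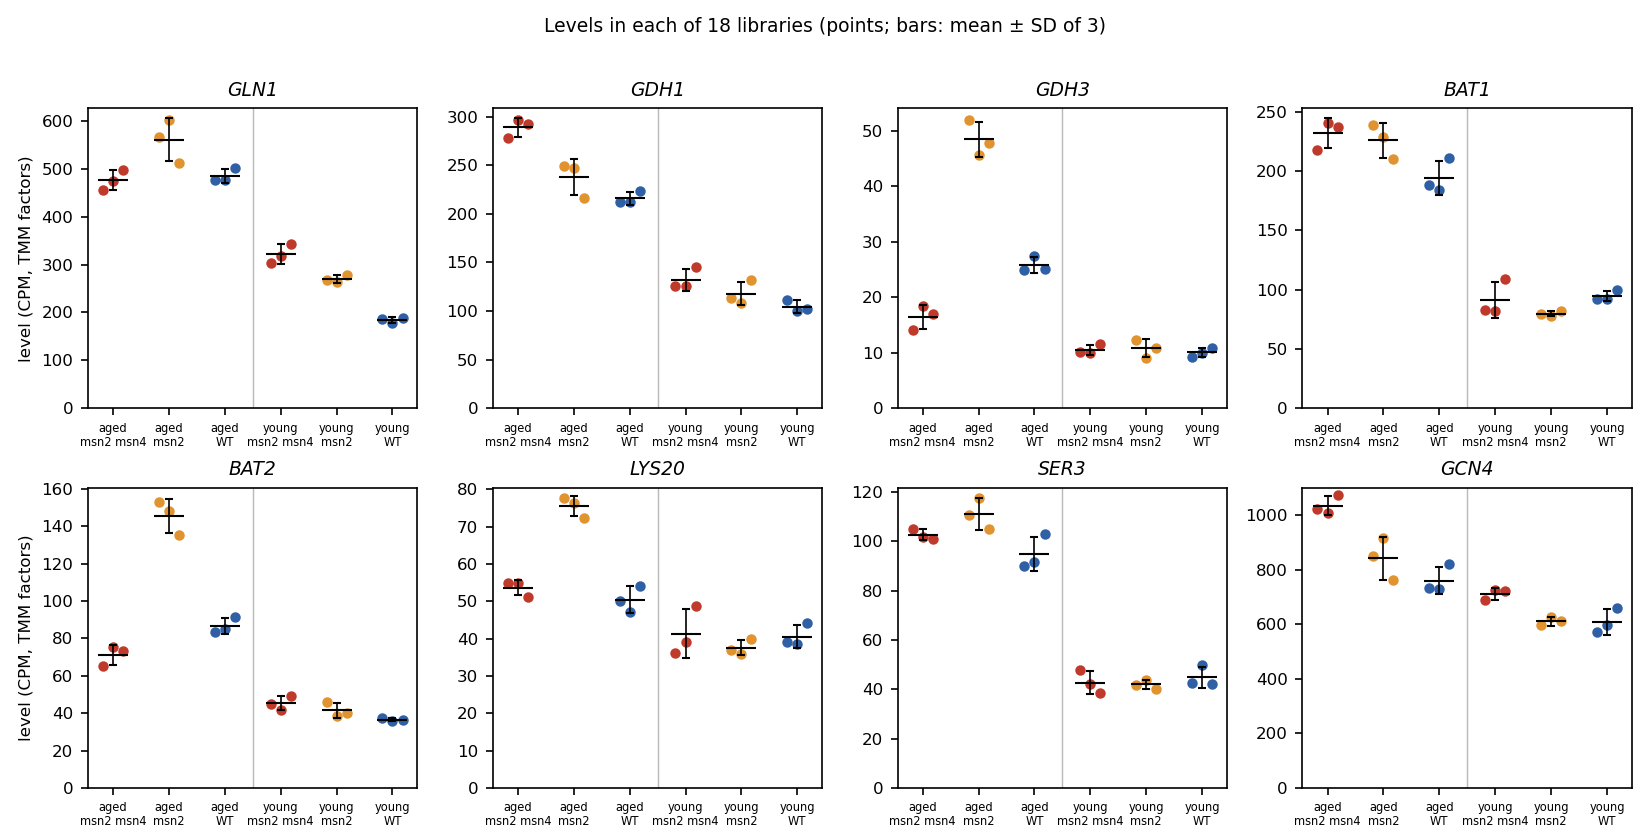
Levels (CPM with TMM factors, linear axes from 0) of 8 genes in each of the 18 libraries, as points, with mean ± SD of 3 as black bars; aged groups are left of young ones and WT is rightmost within each age. GDH3, BAT2 and LYS20 are highest in aged msn2 cells, at 45.6 to 52, 135 to 153 and 72.4 to 77.6 CPM, and lower in aged msn2 msn4 cells, at 14.1 to 18.4, 65.1 to 75.3 and 51.2 to 54.9 CPM.

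Both branched-chain transaminases rose in all strains. BAT1 encodes the mitochondrial enzyme, which completes leucine, isoleucine and valine synthesis. BAT1 (chrVIII:517532-518713) stood at 218, 241 and 238 CPM in aged msn2 msn4 cells, 239, 228 and 210.2 CPM in aged msn2 cells and 188, 184 and 211 CPM in aged WT cells. Young BAT1 levels were 82.5, 82.2 and 109 CPM in msn2 msn4, 79.3, 77.8 and 81.8 CPM in msn2 and 92.1, 91.9 and 99.7 CPM in WT cells. Aged and young libraries did not overlap, and the rises were 1.34 ± 0.099, adjusted p = 1.74e-09 in msn2 msn4, 1.5 ± 0.098, adjusted p = 1.28e-10 in msn2 and 1.04 ± 0.097, adjusted p = 3.81e-08 in WT cells. BAT2 encodes the cytosolic enzyme, known for its part in branched-chain amino acid breakdown. BAT2 (chrX:705744-706874) stood at 65.1, 75.3 and 73.1 CPM in aged msn2 msn4 cells, 153, 148 and 135 CPM in aged msn2 cells and 83.6, 85 and 91.7 CPM in aged WT cells. Young BAT2 levels were 44.6, 41.9 and 49.2 CPM in msn2 msn4, 45.8, 38.6 and 39.9 CPM in msn2 and 37.3, 36 and 36.5 CPM in WT cells. Here too the aged groups separated from the young ones, and aged msn2 libraries lay above every other library. BAT2 rose by 0.65 ± 0.086, adjusted p = 3.05e-06 in msn2 msn4, 1.81 ± 0.083, adjusted p = 4.78e-13 in msn2 and 1.25 ± 0.083, adjusted p = 2.48e-10 in WT cells.
Of 5 isoleucine and valine genes, 4 rose in every strain. ILV3 encodes the dihydroxyacid dehydratase. ILV3 (chrX:464451-466208) stood at 397, 429 and 416 CPM in aged msn2 msn4 cells, 409, 417 and 349 CPM in aged msn2 cells and 319.7, 318 and 336 CPM in aged WT cells. Young ILV3 levels were 168, 173 and 236 CPM in msn2 msn4, 163, 137 and 177 CPM in msn2 and 182, 139 and 163 CPM in WT cells. The aged libraries did not overlap the young ones, and the rises were 1.11 ± 0.13, 1.30 ± 0.13 and 1.01 ± 0.13 in msn2 msn4, msn2 and WT. The catalytic and regulatory subunits of acetolactate synthase, ILV2 and ILV6, rose by 0.71 and 0.50 in msn2 msn4, 0.61 and 0.55 in msn2, and 0.37 and 0.50 in WT cells. ILV1, the threonine deaminase that starts isoleucine synthesis, rose by 0.51, 0.24 and 0.36, and its msn2 call was lost when any of 4 msn2 libraries (young replicates 1 and 2, aged replicates 1 and 2) was left out. ILV5, the reductoisomerase and the most abundant of the pathway, had differences of -0.092, -0.012 and 0.16, none of which passed.
In the leucine branch, LEU1, the isopropylmalate isomerase, and LEU4, the main isopropylmalate synthase, rose and LEU9, its isoenzyme, did not pass. LEU1 (chrVII:476313-478652) stood at 239, 272 and 255 CPM in aged msn2 msn4 cells, 291, 307 and 264 CPM in aged msn2 cells and 219.6, 206 and 225 CPM in aged WT cells. Young LEU1 levels were 178, 162 and 159.9 CPM in msn2 msn4, 149, 142 and 149 CPM in msn2 and 117, 127 and 121 CPM in WT cells. LEU1 levels of aged and young cells did not overlap. The rises were 0.62 ± 0.078, 0.97 ± 0.077 and 0.83 ± 0.077 for LEU1 and 0.72 ± 0.096, 0.93 ± 0.094 and 0.69 ± 0.094 for LEU4 in msn2 msn4, msn2 and WT. LEU4 (chrXIV:424895-426754) stood at 135, 156 and 129.9 CPM in aged msn2 msn4 cells, 140.1, 142 and 116 CPM in aged msn2 cells and 113, 108 and 117 CPM in aged WT cells. Young LEU4 levels were 79.9, 81.2 and 94.6 CPM in msn2 msn4, 70.6, 65.1 and 72.8 CPM in msn2 and 74.3, 64.5 and 70.0 CPM in WT cells. All aged LEU4 values lay above all young ones. LEU9 (chrXV:523027-524841) stood at 95.1, 108 and 97.1 CPM in aged msn2 msn4 cells, 87.1, 91.8 and 68.9 CPM in aged msn2 cells and 69.6, 64.9 and 70.7 CPM in aged WT cells. Young LEU9 levels were 86.2, 84.5 and 97 CPM in msn2 msn4, 78.1, 74.2 and 84.2 CPM in msn2 and 78.2, 65.6 and 70.9 CPM in WT cells. The LEU9 ranges of aged and young cells overlapped in all 3 strains, and its differences were 0.16, 0.068 and -0.066.
All 6 lysine genes were called higher in WT and 4 of 6 in each deletion strain, LYS9 and LYS12 being the exceptions. LYS9 encodes the saccharopine dehydrogenase that forms saccharopine with glutamate. LYS9 (chrXIV:714048-715388) stood at 192, 182 and 202 CPM in aged msn2 msn4 cells, 152, 168 and 144 CPM in aged msn2 cells and 183, 169.8 and 184 CPM in aged WT cells. Young LYS9 levels were 171, 173 and 170.0 CPM in msn2 msn4, 150.3, 159 and 146 CPM in msn2 and 131, 137 and 127 CPM in WT cells. It rose by 0.44 ± 0.072, adjusted p = 3.18e-05 in WT cells, and its differences of 0.17 ± 0.073 in msn2 msn4 and 0.027 ± 0.072 in msn2 did not pass. LYS20 and LYS21 encode the 2 homocitrate synthases of the first step. LYS20 (chrIV:133437-134723) stood at 54.8, 54.9 and 51.2 CPM in aged msn2 msn4 cells, 77.6, 76.4 and 72.4 CPM in aged msn2 cells and 50.0, 47.1 and 54.2 CPM in aged WT cells. Young LYS20 levels were 36.2, 39.1 and 48.7 CPM in msn2 msn4, 37, 35.9 and 39.8 CPM in msn2 and 39.1, 38.5 and 44.1 CPM in WT cells. Aged msn2 cells stood above all other groups. LYS21 (chrIV:227393-228715) stood at 109.6, 114 and 119 CPM in aged msn2 msn4 cells, 102, 101 and 90.5 CPM in aged msn2 cells and 87.7, 82.6 and 96.4 CPM in aged WT cells. Young LYS21 levels were 82.5, 83 and 88.5 CPM in msn2 msn4, 74.4, 80.4 and 74.4 CPM in msn2 and 71.1, 81.6 and 77.4 CPM in WT cells. LYS21 rose by 0.43, 0.35 and 0.21 and LYS20 by 0.37, 1.01 and 0.32 in msn2 msn4, msn2 and WT. The WT call of LYS21 was lost without young replicate 1 or aged replicate 3 of WT, and that of LYS12 (0.22) without young replicate 2 or aged replicate 3. The coding sequences of LYS20 and LYS21 are 91.9% identical with a shared run of 278 bases, so reads of the pair may have been split between them in counting. LYS1, the saccharopine dehydrogenase that releases lysine, rose by 0.72, 1.04 and 0.69, and LYS4, homoaconitase, by 0.48, 0.31 and 0.34.
Histidine genes divided. HIS4, a multifunctional enzyme that also catalyses the last steps, had the smallest p of the pathway in WT cells. HIS4 (chrIII:65934-68333) stood at 147, 171 and 154 CPM in aged msn2 msn4 cells, 112, 117 and 109 CPM in aged msn2 cells and 112, 109.8 and 121 CPM in aged WT cells. Young HIS4 levels were 104, 104 and 98.1 CPM in msn2 msn4, 91.8, 97.5 and 99.2 CPM in msn2 and 83.5, 78.5 and 74.5 CPM in WT cells. Aged libraries lay above the young ones in every strain. HIS4 rose by 0.62 ± 0.074, adjusted p = 8.86e-07 in msn2 msn4, 0.23 ± 0.072, adjusted p = 0.0085 in msn2 and 0.54 ± 0.072, adjusted p = 3.94e-06 in WT cells. HIS5, the aminotransferase, rose by 0.95, 0.61 and 0.44, and HIS7, the glutamine amidotransferase-cyclase, by 0.97, 0.73 and 0.69. HIS2, the histidinol phosphatase, fell by 0.33, 0.54 and 0.61 on the TMM scale, with signs turned to 0.10 and 0.051 in msn2 msn4 and msn2 under library totals, and its msn2 msn4 call was lost without young replicate 2 or aged replicate 2 of msn2 msn4 and with thinning. HIS1, the phosphoribosyltransferase of the first step, had a mean of 529 ± 101 CPM in aged msn2 msn4 cells, 329 ± 16.4 CPM in aged msn2 cells and 476 ± 25.5 CPM in aged WT cells, against 522 ± 56.3, 509.7 ± 80.4 and 658 ± 17.5 CPM in young cells (SD, n = 3 each). It fell in msn2 (-0.63 ± 0.12) and in WT (-0.47 ± 0.12, turned to 0.036 under library totals) and differed by 0.021 ± 0.12 in msn2 msn4.
Among tryptophan and aromatic genes, TRP2, TRP5, ARO1, ARO3, ARO4 and ARO8 rose in all strains, though the ARO1 call in msn2 was lost without young replicate 2 or aged replicate 1 or 2 of msn2 and with RLE factors. TRP5 encodes tryptophan synthase, the last enzyme of its pathway. TRP5 (chrVII:446412-448535) stood at 150.4, 153 and 159 CPM in aged msn2 msn4 cells, 133, 138 and 111 CPM in aged msn2 cells and 145, 135 and 146 CPM in aged WT cells. Young TRP5 levels were 116, 116 and 125 CPM in msn2 msn4, 93.3, 95.9 and 104 CPM in msn2 and 89.6, 81 and 84.9 CPM in WT cells. In each strain the aged values lay above the young ones. Its rises were 0.37 ± 0.082, 0.38 ± 0.08 and 0.74 ± 0.08 in msn2 msn4, msn2 and WT. TRP4, the anthranilate phosphoribosyltransferase, fell by 0.36, 0.53 and 0.39 on the TMM scale and turned to 0.069, 0.065 and 0.11 under library totals. ARO3 and ARO4 encode the DAHP synthases that open the shikimate pathway, inhibited by phenylalanine and by tyrosine. ARO3 (chrIV:521816-522928) stood at 161, 163 and 179 CPM in aged msn2 msn4 cells, 158, 157 and 141 CPM in aged msn2 cells and 162, 159 and 164 CPM in aged WT cells. Young ARO3 levels were 107, 116 and 133 CPM in msn2 msn4, 106, 101 and 112 CPM in msn2 and 115, 95.1 and 107 CPM in WT cells. Aged and young ARO3 levels did not overlap within a strain. ARO4 (chrII:716882-717994) stood at 216, 241 and 247 CPM in aged msn2 msn4 cells, 183, 191 and 153 CPM in aged msn2 cells and 165, 158 and 184 CPM in aged WT cells. Young ARO4 levels were 137, 145 and 165 CPM in msn2 msn4, 115, 121 and 130.4 CPM in msn2 and 138, 126 and 144 CPM in WT cells. The rises were 0.50 ± 0.089, 0.52 ± 0.087 and 0.61 ± 0.087 for ARO3 and 0.65 ± 0.097, 0.52 ± 0.096 and 0.31 ± 0.096 for ARO4; the WT call of ARO4 was lost without aged replicate 3 of WT. ARO8 and ARO9 encode aromatic aminotransferases, of which Aro9 is known for aromatic amino acid breakdown. ARO8 (chrVII:116059-117561) stood at 178, 189 and 184 CPM in aged msn2 msn4 cells, 161, 160.4 and 135 CPM in aged msn2 cells and 159, 146 and 173 CPM in aged WT cells. Young ARO8 levels were 149.9, 154 and 173 CPM in msn2 msn4, 131, 134 and 134 CPM in msn2 and 125, 119 and 122 CPM in WT cells. ARO8 rose by 0.20, 0.20 and 0.39, and the calls in msn2 msn4 and in msn2 were each lost when any of 5 libraries was left out (msn2 msn4 young replicates 1 and 2 and all 3 aged, msn2 young replicates 1 to 3 and aged replicates 1 and 2). ARO9 (chrVIII:375709-377250) stood at 6.56, 6.79 and 7.28 CPM in aged msn2 msn4 cells, 7.24, 7.94 and 8.27 CPM in aged msn2 cells and 6.05, 6.27 and 6.31 CPM in aged WT cells. Young ARO9 levels were 11.2, 9.69 and 6.96 CPM in msn2 msn4, 9.01, 9.46 and 8.01 CPM in msn2 and 6.39, 10.1 and 8.02 CPM in WT cells. ARO9 had the lowest mean CPM of all members in every group, and its WT call of -0.40 ± 0.16 was lost when any of 5 WT libraries other than young replicate 1 was left out and turned to 0.12 under library totals. ARO7, chorismate mutase, differed by -0.23 in WT, a call that 9 of 18 left-out libraries ended (WT young replicates 2 and 3 and all 3 aged WT among them) and library totals turned to 0.28.
In serine synthesis, SER3 and SER33 encode the isoenzymes of phosphoglycerate dehydrogenase, the first step. SER3 (chrV:322686-324095) stood at 105, 102 and 101 CPM in aged msn2 msn4 cells, 111, 118 and 105 CPM in aged msn2 cells and 90.2, 91.7 and 103 CPM in aged WT cells. Young SER3 levels were 47.7, 42 and 38.4 CPM in msn2 msn4, 41.9, 43.8 and 40.2 CPM in msn2 and 42.6, 49.8 and 42.2 CPM in WT cells. Every aged SER3 value was above every young one. SER3 rose by 1.27 ± 0.089, adjusted p = 9.49e-10 in msn2 msn4, 1.40 ± 0.086, adjusted p = 5.37e-11 in msn2 and 1.08 ± 0.086, adjusted p = 3.52e-09 in WT cells. SER33 (chrIX:221081-222490) stood at 76.8, 79.7 and 83.8 CPM in aged msn2 msn4 cells, 65, 68 and 52.9 CPM in aged msn2 cells and 57.5, 57.9 and 64.5 CPM in aged WT cells. Young SER33 levels were 62.4, 66 and 61.4 CPM in msn2 msn4, 52.1, 53.2 and 51 CPM in msn2 and 54.1, 53.6 and 51.6 CPM in WT cells. SER33 rose by 0.34 ± 0.085 in msn2 msn4 and 0.25 ± 0.081 in msn2, which was lost without aged replicate 2 of msn2, and its difference of 0.18 ± 0.081 in WT did not pass. SER1, the aminotransferase, passed in no strain. SER2, the phosphatase of the last step, fell most of all members in msn2 msn4 and WT: by 0.47, 0.48 and 0.79 in msn2 msn4, msn2 and WT on the TMM scale, with the msn2 value turned to 0.11 under library totals.
The aspartate family leads to threonine and asparagine. THR1, homoserine kinase, rose by 0.41, 0.60 and 0.33, and its WT call was lost without young replicate 2 or 3 or aged replicate 1 or 3 of WT. HOM3, aspartate kinase, rose in msn2 msn4 (0.25), a call lost without young replicate 2 or aged replicate 2 of that strain. HOM2, aspartate semialdehyde dehydrogenase, fell by 0.38, 0.62 and 0.29, with the msn2 msn4 and WT values turned to 0.052 and 0.22 under library totals. ASN1 and ASN2 encode the asparagine synthetases. ASN1 (chrXVI:822620-824338) stood at 224, 242 and 245 CPM in aged msn2 msn4 cells, 226, 221 and 195 CPM in aged msn2 cells and 189, 189 and 198 CPM in aged WT cells. Young ASN1 levels were 280.5, 294 and 315 CPM in msn2 msn4, 268, 272 and 267 CPM in msn2 and 247, 217 and 248 CPM in WT cells. ASN1 fell by 0.32, 0.33 and 0.30 in msn2 msn4, msn2 and WT on the TMM scale, and the values turned to 0.10, 0.26 and 0.20 under library totals. ASN2 (chrVII:739944-741662) stood at 297, 337 and 322 CPM in aged msn2 msn4 cells, 264, 278 and 228 CPM in aged msn2 cells and 263, 254 and 295 CPM in aged WT cells. Young ASN2 levels were 329.9, 347 and 365 CPM in msn2 msn4, 299, 313 and 296 CPM in msn2 and 303, 286 and 308 CPM in WT cells. ASN2 fell in msn2 (-0.24 ± 0.085, turned to 0.36 under library totals, and lost without young replicate 2 or aged replicate 3 of msn2) and did not pass in the others.
Of the proline genes, PRO2, gamma-glutamyl phosphate reductase, rose in all strains. PRO2 (chrXV:921535-922905) stood at 104, 103 and 101 CPM in aged msn2 msn4 cells, 96, 93.8 and 81 CPM in aged msn2 cells and 87.6, 87.6 and 94.3 CPM in aged WT cells. Young PRO2 levels were 75.1, 78.6 and 90.3 CPM in msn2 msn4, 72.2, 63.8 and 72.7 CPM in msn2 and 76.3, 60.3 and 67.8 CPM in WT cells. Its rises were 0.34 ± 0.095, 0.38 ± 0.092 and 0.40 ± 0.092 in msn2 msn4, msn2 and WT. PRO3, the last enzyme, rose by 0.35 in msn2 msn4 and 0.29 in WT, where the call was lost without young replicate 2 of WT, and PRO1, the kinase of the first step, fell in msn2 (-0.23, turned to 0.36 under library totals and lost without young replicate 2 of msn2).
GCN4 mRNA itself rose with age in every strain. GCN4 (chrV:138918-139763) stood at 1022, 1009 and 1074 CPM in aged msn2 msn4 cells, 849, 916 and 761 CPM in aged msn2 cells and 732, 729.6 and 819 CPM in aged WT cells. Young GCN4 levels were 688, 726 and 720.3 CPM in msn2 msn4, 596, 628 and 610.2 CPM in msn2 and 570.4, 596 and 661 CPM in WT cells. Aged msn2 msn4 libraries were the 3 highest of all 18. The rises were 0.54 ± 0.086, adjusted p = 2.32e-05 in msn2 msn4, 0.46 ± 0.085, adjusted p = 8.73e-05 in msn2 and 0.32 ± 0.085, adjusted p = 0.00299 in WT cells; mRNA does not measure the Gcn4 protein. Of 13 genes that act on Gcn4, 6 rose and 2 fell in msn2 msn4, 5 and 4 in msn2, and 5 and 2 in WT cells. PCL5, the cyclin that targets Gcn4 for degradation and is itself a Gcn4 target, rose by 0.98 ± 0.062, 1.78 ± 0.06 and 1.20 ± 0.059, and GCD2, a subunit of the initiation factor eIF2B, fell by 0.71, 0.58 and 0.54, values that were -0.28, 0.0092 and -0.026 with library totals. Of 15 regulators of single pathways, 6 rose and 3 fell in msn2 msn4, 5 and 6 in msn2, and 3 and 5 in WT. GLN3, the GATA activator of nitrogen genes, fell by 0.67, 0.72 and 0.52, against -0.24, -0.12 and -0.007 with library totals.
Other genes of amino acid use were set beside the members. Of 16 further synthesis enzymes, 6 rose and 3 fell with age in msn2 msn4, 9 and 4 in msn2, and 7 and 4 in WT cells. LEU2, the isopropylmalate dehydrogenase that follows Leu1, rose by 1.49 ± 0.11, 1.98 ± 0.11 and 1.91 ± 0.11, more than any member in WT cells. Of 11 genes of amino acid breakdown, 4 rose and 1 fell in msn2 msn4, 5 and 1 in msn2, and 5 and 3 in WT. GAD1, the glutamate decarboxylase of the GABA shunt, rose by 1.21 ± 0.11, 2.47 ± 0.089 and 1.90 ± 0.08, and CHA1, the serine and threonine deaminase, changed by -1.53 ± 0.12, -0.44 ± 0.10 and -1.47 ± 0.10, with the msn2 value turned to 0.14 under library totals. Of 17 permeases for amino acids and ammonium, 7 rose and 5 fell in msn2 msn4, 10 and 4 in msn2, and 8 and 3 in WT. With library totals each of these 5 lists held at most 1 fall in any strain. Over all genes, that scale gave 827, 645 and 598 falls and 4104, 4927 and 4753 rises in msn2 msn4, msn2 and WT.
Young deletion strains were then compared with young WT, to see how the strains differ before aging. With 1 strain per genotype, a deletion cannot be told apart from other differences between the strains. More members were higher in young msn2 msn4 cells than lower, and 0 differed by 2-fold or more. Of the 52 members, 24 rose and 3 fell in young msn2 msn4 cells (18 and 2 without young replicate 2 of WT, 19 and 1 without young replicate 3 of msn2 msn4), while 37.7% of all genes were called (17.9% higher and 19.9% lower). In young msn2 cells 6 rose and 3 fell, against 30.5% of all genes (15% higher and 15.5% lower). The count for young msn2 was 5 in all without young replicate 3 of WT or of msn2, and 10 without young replicate 2 of msn2. Medians over the members were 0.20 in msn2 msn4 and 0.011 in msn2, against -0.0075 and -0.012 over all genes. With library totals the median of all genes shifted by 0.17 for msn2 msn4 against WT, by 0.05 for msn2 against WT and by 0.12 between the mutants. Against WT, members then split into 34 higher and 1 lower in msn2 msn4 and into 5 and 1 in msn2. All genes split into 2005 higher and 681 lower and into 1056 and 674 on that scale. Between young msn2 msn4 and young msn2 cells 0 members passed with edgeR, which called 0.454% of all genes. By the same test 21 members had an unadjusted p under 0.05, as did 865 of 6833 genes. DESeq2 called 4 members, and its share of all genes is not given here, so that count has no background. The median over members there was 0.18, against -0.0024 over all genes, and 46 of 52 values were above 0, against 49.4% of all genes.
GLN1 had the largest of these differences, at 0.80 ± 0.078, adjusted p = 1.59e-07 in young msn2 msn4 and 0.55 ± 0.078, adjusted p = 2.94e-05 in young msn2 cells, and its young groups did not overlap. ILV5 was higher by 0.58 ± 0.08 and 0.43 ± 0.08, LEU1 by 0.45 ± 0.077 and 0.27 ± 0.077, HIS4 by 0.37 ± 0.073 and 0.29 ± 0.073, and LYS4 by 0.32 ± 0.074 and 0.24 ± 0.074 in the same order. SER2 was lower in both, with differences of -0.56 ± 0.086 and -0.47 ± 0.086. HIS1 was lower too, with differences of -0.33 ± 0.12 and -0.37 ± 0.12, with group means of 522 and 509.7 CPM in msn2 msn4 and msn2 cells and 658 CPM in WT cells. The HIS1 and LYS4 calls in msn2 were lost when any of 4 and 3 libraries was left out (WT young replicates 1 and 3 and msn2 young replicates 1 and 3 for HIS1; WT young replicates 2 and 3 and msn2 young replicate 3 for LYS4), and the HIS1 call in msn2 msn4 without any young WT library or msn2 msn4 young replicate 1 or 3. GCN4 was higher in young msn2 msn4 cells by 0.22 ± 0.085, adjusted p = 0.0454, a call lost without any of 11 libraries, WT young replicates 1 and 2 and every young msn2 msn4 library among them. Of the comparison lists, 10 of 17 permeases were higher and 0 lower in young msn2 msn4 than in WT cells, among them AGP1 (0.82 ± 0.087), a broad amino acid permease, and DIP5 (0.62 ± 0.094), which carries glutamate and aspartate. Of 11 breakdown genes 1 was higher and 4 lower, among them GAD1 (-2.17 ± 0.091) and UGA1 (-0.95 ± 0.075), both of the GABA shunt. Newborn daughter markers moved with genotype as well: 10 of 11 were higher in young msn2 msn4 and 8 of 11 in young msn2 than in WT, with summed levels of 1839 to 2146 CPM, 1651 to 1862 CPM and 1243 to 1314 CPM in young msn2 msn4, msn2 and WT libraries. Of 4 alpha-cell markers 3 were higher and 0 lower in both young deletion strains, among them SAG1 (1.38 ± 0.092 in msn2 msn4 and 1.31 ± 0.092 in msn2) and STE3 (0.96 ± 0.086 and 0.89 ± 0.086). Of 6 a-cell markers, MFA1 (-0.96 ± 0.31) and MFA2 (-1.20 ± 0.26) were lower in young msn2 msn4, and 0 passed in young msn2. Their part in these results was not tested.
In aged cells the double mutant again had more members above WT than below, while in the single mutant GDH3, BAT2 and LYS20 were the members raised most and HIS1 and HOM6 those lowered most. Of 52 members, 26 rose and 3 fell in aged msn2 msn4 against aged WT cells, with 36.3% of all genes called (16.6% higher and 19.7% lower). In aged msn2 against aged WT cells 10 rose and 6 fell, with 30% of all genes called (13.9% higher and 16% lower). Aged msn2 msn4 against aged msn2 cells gave 27 higher and 4 lower, with 24.8% of all genes called (11.3% higher and 13.5% lower). Medians over members were 0.22, 0.00060 and 0.25 in these comparisons, and over all genes -0.0067, 0.0194 and -0.0205. Library totals shifted the median of all genes by 0.09, 0.13 and -0.04 and gave 26 members higher and 1 lower, 16 and 2, and 10 and 3. All genes split into 1344 higher and 995 lower, 1658 and 507, and 293 and 1017 on that scale. Without aged replicate 3 of msn2 the TMM count for msn2 msn4 against msn2 was 16 members in place of 31. Members lower in aged msn2 against WT were then 3 in place of 6. Without aged replicate 2 of WT the count for msn2 msn4 against WT was 19 in place of 29 and that for msn2 against WT 10 in place of 16, as it also was without aged replicate 1 of msn2. At adjusted p under 0.05 against a log2 change of 0.5, GDH3 and BAT2 were the only members to pass in msn2 against WT and in msn2 msn4 against msn2. The share of all genes at that threshold is not given here.
GDH3, BAT2 and LYS20 were higher in aged msn2 cells than in both other aged groups. GDH3 differed by 0.91 ± 0.10, adjusted p = 1.33e-06 in aged msn2 against WT, by -0.66 ± 0.12, adjusted p = 2.27e-04 in aged msn2 msn4 against WT and by -1.57 ± 0.12, adjusted p = 7.99e-09 in aged msn2 msn4 against msn2. For BAT2 the values were 0.75 ± 0.08, adjusted p = 8.79e-07, -0.29 ± 0.085, adjusted p = 0.0109 and -1.03 ± 0.085, adjusted p = 1.92e-08. LYS20 was higher in aged msn2 against WT by 0.58 ± 0.091, adjusted p = 7.55e-05 and lower in aged msn2 msn4 against msn2, with a difference of -0.49 ± 0.097, adjusted p = 0.00104, and its difference of 0.086 ± 0.098 in aged msn2 msn4 against WT did not pass. The BAT2 call in msn2 msn4 against WT was lost without aged replicate 1 of msn2 msn4 and with library totals (-0.20), and the other calls of these 3 genes between aged groups held with each library left out. These comparisons share the aged WT or the aged msn2 libraries.
Elsewhere the double mutant stood above aged WT: GCN4 by 0.45 ± 0.086, adjusted p = 3.71e-04, ILV2 by 0.65 ± 0.084, adjusted p = 4.51e-06, LEU9 by 0.55 ± 0.10, adjusted p = 2.40e-04, HIS5 by 0.48 ± 0.081, adjusted p = 1.07e-04, ARO4 by 0.47 ± 0.097, adjusted p = 7.17e-04 and GDH1 by 0.42 ± 0.087, adjusted p = 7.37e-04. All 6 held with each library left out, and their aged msn2 msn4 and WT libraries did not overlap. GLN1, which differed most among young strains, differed by -0.025 ± 0.077 in aged msn2 msn4 and 0.21 ± 0.077 in aged msn2 cells; the msn2 call (adjusted p = 0.0457) was lost without any of 11 libraries, all 3 aged WT libraries among them. HIS1 was lower in aged msn2 than in aged WT cells, with a difference of -0.53 ± 0.12, adjusted p = 0.00255, as was HOM6, homoserine dehydrogenase, with -0.52 ± 0.09, adjusted p = 2.17e-04. In aged msn2 msn4 against WT neither passed, at 0.15 ± 0.12 and -0.025 ± 0.09. Of the comparison lists, 7 of 17 permeases were higher and 1 lower in aged msn2 msn4 than in aged WT cells, and of 11 breakdown genes 3 were higher and 4 lower, with GAD1 at -2.86 ± 0.094 and UGA1 at -1.09 ± 0.079. Daughter markers were higher here too, 8 of 11 in aged msn2 msn4 and 2 of 11 in aged msn2 against WT, with sums of 2012 to 2337, 1538 to 1688 and 1461 to 1638 CPM in aged msn2 msn4, msn2 and WT, and 3 of 6 a-cell markers were higher in aged msn2 msn4, with sums of 52.1 to 55.4, 41.2 to 44.5 and 37.8 to 40.5 CPM. Of 4 alpha-cell markers, 3 were higher in aged msn2 msn4 and 1 in aged msn2 than in aged WT cells. Their part in these results was not tested.

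**Figure D4:**
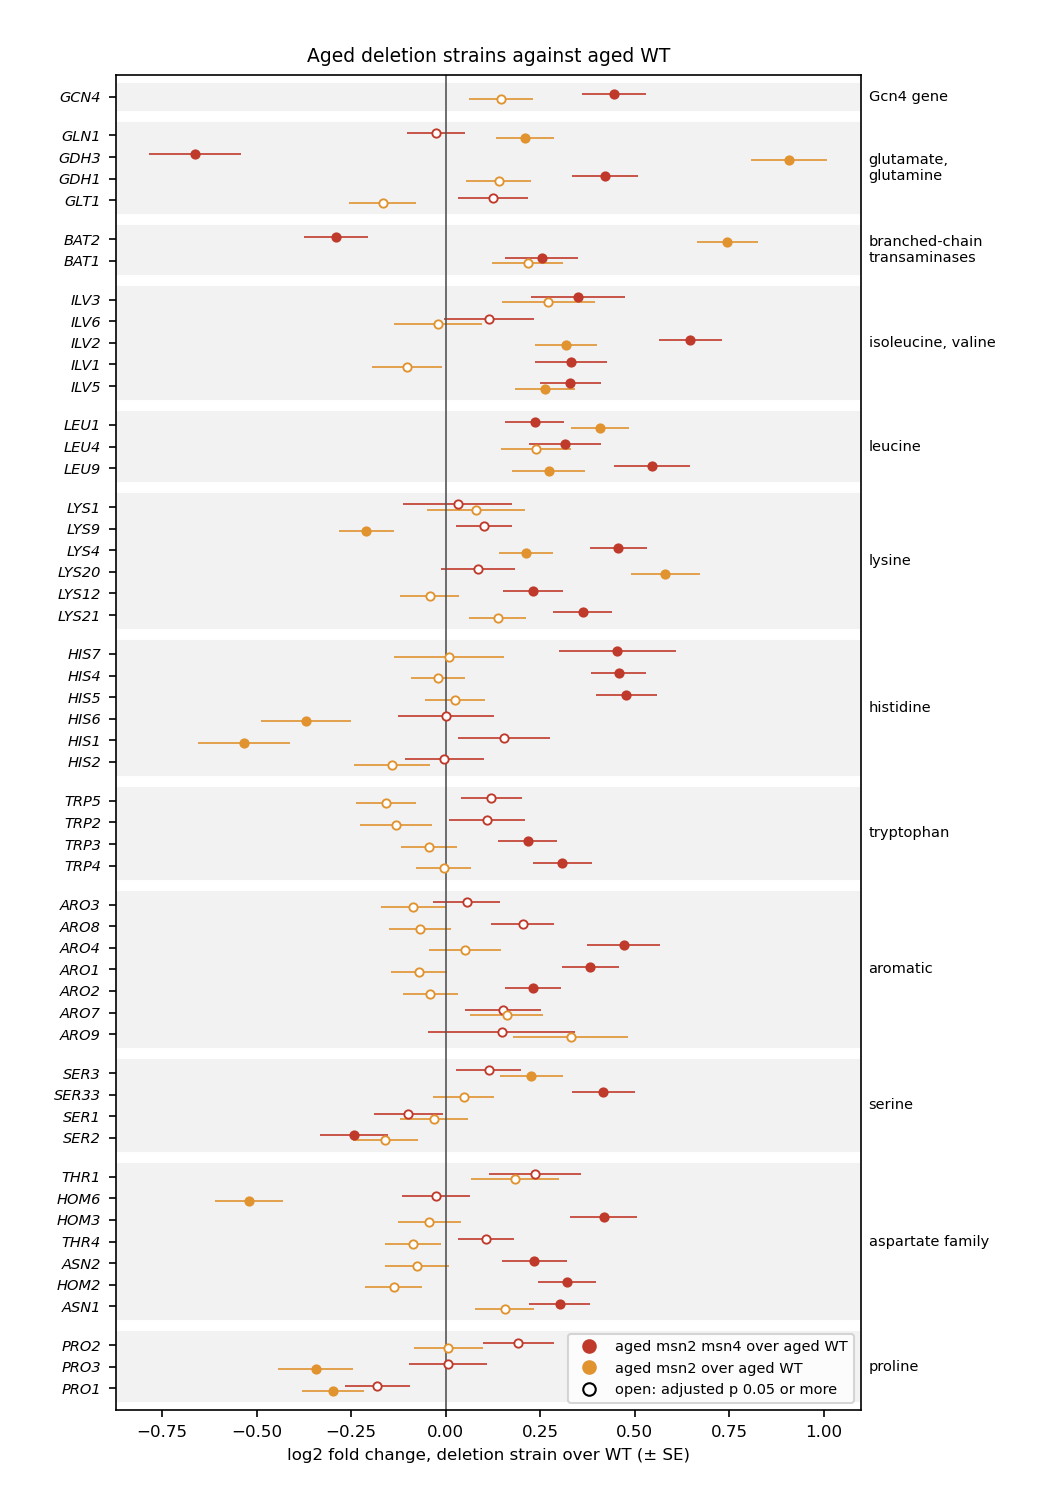
Log2 fold change (horizontal axis, ± SE) of aged msn2 msn4 over aged WT (red) and of aged msn2 over aged WT (orange) for the 52 genes by pathway; filled points passed the test. GDH3 and BAT2 lie on opposite sides of 0 for the mutants, at -0.66 and 0.91 and at -0.29 and 0.75, while most other red points lie right of 0.

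Whether the change with age differed between strains was tested as the difference of the age effects. Between msn2 msn4 and WT, 1 member was called higher (HIS5) and 4 lower, with 16.2% of all genes called (7.17% higher and 8.99% lower). Between msn2 and WT, 4 were higher and 5 lower, with 14.8% called (7.54% higher and 7.23% lower), and between msn2 msn4 and msn2, 2 were higher and 4 lower, with 6.18% called (1.71% higher and 4.46% lower). The members' shares called were 9.62%, below that background, 17.3%, near it, and 11.5%, above it. The msn2 and WT count of 9 was 4 or 5 without any of 9 libraries (young replicate 3 of WT, all young msn2 and all aged WT libraries, and aged replicates 1 and 3 of msn2). Library totals gave 0 members higher and 3 lower, 5 and 0, and 0 and 5, with shifts of the median of all genes of -0.08, 0.08 and -0.16. All genes split into 239 higher and 684 lower, 504 and 180, and 28 and 542 on that scale. GLN1 had the most negative difference against WT, -0.83 ± 0.11, adjusted p = 3.71e-05 in msn2 msn4, and GDH3 the largest in size between mutants, -1.53 ± 0.17, adjusted p = 4.69e-06. BAT2 differed by -0.59 ± 0.12, 0.57 ± 0.12 and -1.16 ± 0.12 in msn2 msn4 minus WT, msn2 minus WT and msn2 msn4 minus msn2, and these 3 calls held with each library left out. In msn2 msn4 minus msn2 the counts were 0 higher and 5 lower without aged replicate 3 of msn2. They were 0 higher and 4 in all without young replicate 2 of msn2. In msn2 msn4 minus WT they were 4 higher and 3 lower without young replicate 3 of msn2 msn4. Without young replicate 2 of WT, 3 members were lower in msn2 msn4 minus WT. For GDH3 against WT the differences were -0.73 ± 0.17 and 0.80 ± 0.15; the first did not pass when all libraries were thinned to the smallest total. The 2 values against WT share the WT libraries.
The 8 pairs of duplicated enzymes give levels that can be set against each other per kilobase. LEU4 over LEU9 was above 0 in every aged library and below 0 in every young one: means of the log2 ratio were 0.45 ± 0.058, 0.65 ± 0.060 and 0.68 ± 0.022 in aged msn2 msn4, msn2 and WT cells, and -0.10 ± 0.038, -0.22 ± 0.031 and -0.075 ± 0.030 in young cells (SD, n = 3 each). SER3 over SER33 did the same, at 0.36 ± 0.091, 0.85 ± 0.12 and 0.66 ± 0.012 in aged and -0.57 ± 0.16, -0.31 ± 0.032 and -0.25 ± 0.12 in young cells. The more abundant transcript per kilobase was thus LEU4 and SER3 in aged cells and LEU9 and SER33 in young cells of all 3 strains. BAT1 over BAT2 was 1.64 ± 0.032 in aged msn2 msn4, 0.57 ± 0.0079 in aged msn2 and 1.10 ± 0.044 in aged WT cells, against 0.94 ± 0.13, 0.88 ± 0.13 and 1.31 ± 0.075 in young ones. GDH1 over GDH3 was 4.15 ± 0.15, 2.30 ± 0.13 and 3.07 ± 0.11 in aged and 3.66 ± 0.015, 3.46 ± 0.22 and 3.39 ± 0.19 in young cells. In both of these pairs the aged ratios of the 3 strains did not overlap. The same held for SER3 over SER33 and for LYS20 over LYS21.
LYS20 over LYS21 was -1.05 ± 0.11, -0.33 ± 0.043 and -0.78 ± 0.012 in aged msn2 msn4, msn2 and WT cells and between -0.88 and -1.01 in the young groups, with the doubt over shared reads given above. ARO3 over ARO4 ran from -0.48 to -0.066 in aged groups and from -0.37 to -0.20 in young ones, and ASN1 over ASN2 from -0.49 to -0.26 and from -0.34 to -0.17. ARO8 exceeded ARO9 by 4.32 to 4.78 in aged and 3.95 to 4.16 in young groups, the widest gap of any pair. The coding sequences of the 7 pairs other than LYS20 and LYS21 are 60.7% to 82.8% identical, with shared runs of at most 83 bases, against paired reads of up to 150 bases.

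**Figure D5:**
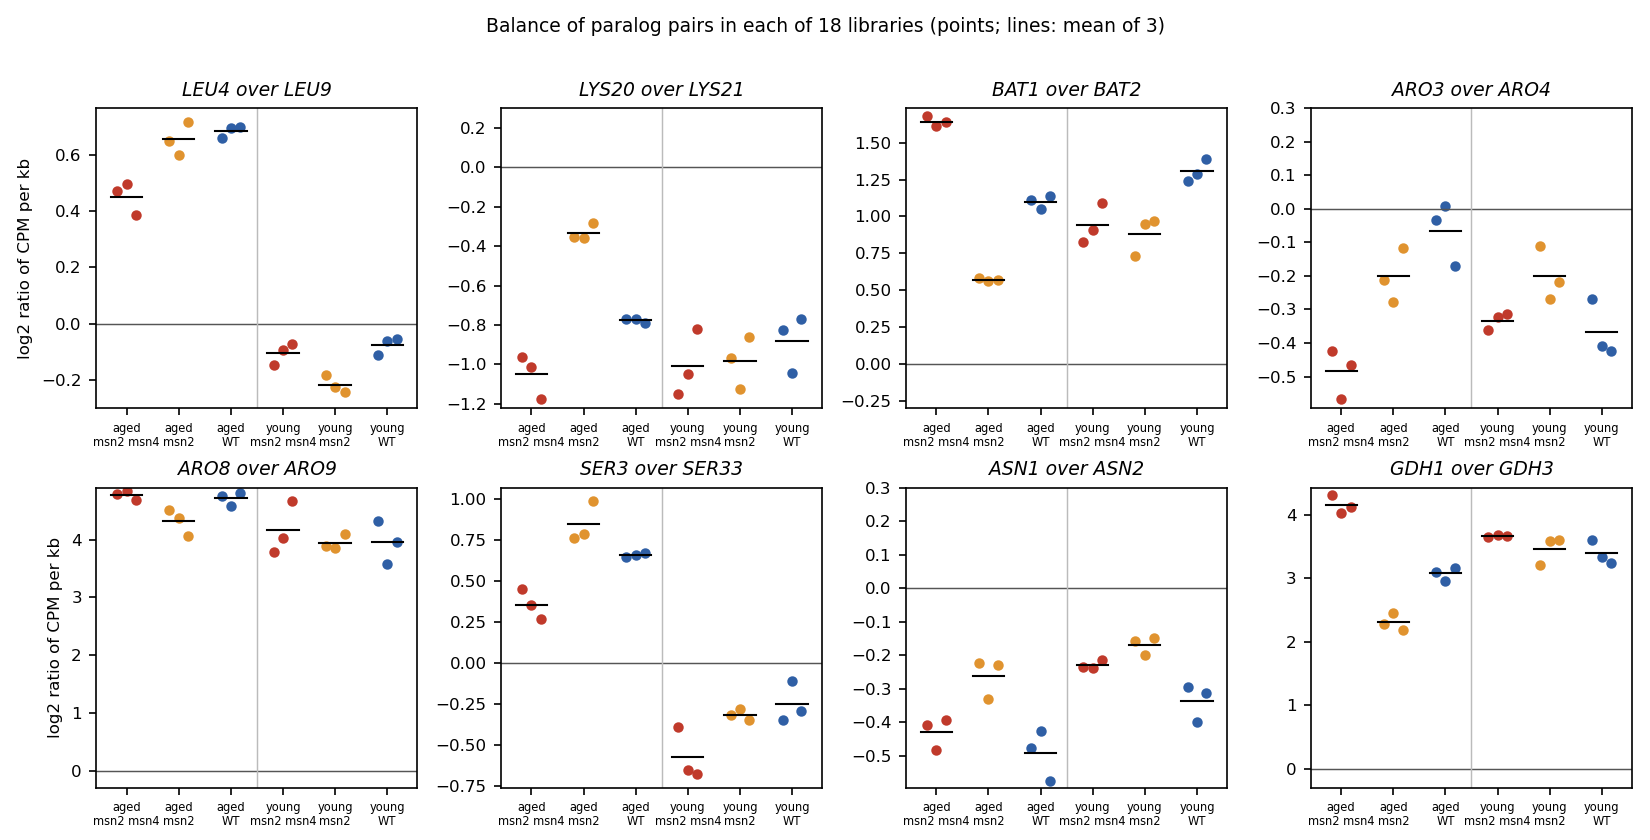
Log2 ratio of CPM per kilobase of coding length for 8 pairs of duplicated enzymes in each of 18 libraries (points), with lines at the mean of 3; aged groups are left of young ones. The LEU4 over LEU9 and SER3 over SER33 points lie above 0 in all 9 aged libraries and below 0 in all 9 young ones, and BAT1 over BAT2 and GDH1 over GDH3 are lowest in aged msn2 cells.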

How the data were processed

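RNA was measured by polyA sequencing in 18 samples. Per the labels' protocols, polyA RNA was sequenced as read pairs from strand-marking libraries. The submitters' processing notes name STAR 2.7.6a, cutadapt 2.6, bcl2fastq and, from Subread 1.6.2, featureCounts, with build R64 (sacCer3), and counting options are not given in the sources used here. The deposited values are expected counts with fractional parts (54.6% of values above 0 were not whole), for 7118 features in 18 libraries with totals of 4078400 to 41649952. They were rounded before the fit. All 52 members matched RefSeq R64 locus tags.
A single edgeR 4.0.16 model in R 4.3.3 covered the 18 libraries: TMM factors, filterByExpr (6833 genes kept, 285 left out), 1 mean per group and quasi-likelihood F tests for 12 contrasts, which are 3 of aged against young cells, 6 between strains and 3 of differences in age effect, with 12 residual degrees of freedom, a common biological coefficient of variation of 0.0922 and Benjamini-Hochberg adjustment over all genes within a contrast. The fit was first run on simulated data in which few genes were changed, equally up and down, in aged WT alone. Most genes were called with age in the real data, so that run does not bear on the choice of scaling. Levels are CPM with TMM factors. Motifs were searched and coding sequences aligned with Python 3.11.15 and Biopython 1.88. Alternatives were DESeq2 1.42.0, RLE factors, library totals, 2 other filters, only the libraries compared, a replicate block, thinning, a test against 0.5, truncation, and each library left out; a fit without aged msn2 msn4 was chosen after seeing the data. Values in every library are given for GCN4, the 8 paralog pairs, the member with the largest change in each contrast and the member of each pathway with the smallest p in WT; at most 2 genes of each comparison list are named per contrast by smallest p. Members and lists were chosen with earlier results of these data known. Some members' calls named for their loss or for a pattern across strains were picked after their values were seen.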

Additional observations from a re-analysis of the deposited data

Results flagged for a closer look

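Differences in age effect between strains were called for 20 combinations of gene and strain pair among the 156 examined, each by the test of the difference itself, with log2 values and edgeR adjusted p. With 3 samples in each group, single outlying values of a gene were not tested.
In msn2 msn4 minus WT, the values were 0.50 for HIS5 (adjusted p = 0.00467), -0.59 for BAT2 (0.00171), -0.36 for TRP5 (0.035), -0.83 for GLN1 (3.71e-05) and -0.73 for GDH3 (0.00537).
In msn2 minus WT, the values were -0.31 for HIS4 (adjusted p = 0.0483), -0.42 for LYS9 (0.00998), 0.69 for LYS20 (0.00161), 0.46 for BAT1 (0.0264), 0.57 for BAT2 (0.00286), -0.35 for TRP5 (0.0402), -0.33 for HOM2 (0.0458), -0.34 for GLN1 (0.0396) and 0.80 for GDH3 (0.00184).
In msn2 msn4 minus msn2, they were 0.65 for HIS1 (adjusted p = 0.027), 0.39 for HIS4 (0.0264), -0.63 for LYS20 (0.0057), -1.16 for BAT2 (2.10e-06), -0.49 for GLN1 (0.0086) and -1.53 for GDH3 (4.69e-06).
With each of 18 libraries left out in turn, 4 of 5, 4 of 9 and 4 of 6 of these calls held in every fit. Those lost at least once were TRP5 in msn2 msn4 minus WT, HIS4, BAT1, TRP5, HOM2 and GLN1 in msn2 minus WT, and HIS1 and HIS4 in msn2 msn4 minus msn2. In msn2 minus WT, HIS4 was lost in 14 fits, HOM2 in 13, GLN1 in 11 and BAT1 in 6. In msn2 msn4 minus msn2, HIS1 was lost in 7 fits and HIS4 in 5. Among the calls that held, LYS9 in msn2 minus WT was lost with library totals and with thinning. In msn2 msn4 minus WT, HIS5 was lost with library totals and GDH3 with thinning.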

How the results depend on the processing

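Of 247 called values of single members over the 12 contrasts, every one kept its direction under DESeq2, RLE factors, both other filters, the contrast's own libraries, the replicate block, thinning, truncation and each library left out; 16 reversed with library totals. Those were, in aged against young msn2 msn4, ASN1 (0.10), HIS2 (0.10), HOM2 (0.052) and TRP4 (0.069); in msn2, ASN1 (0.26), ASN2 (0.36), HIS2 (0.051), PRO1 (0.36), SER2 (0.11) and TRP4 (0.065); and in WT, ARO7 (0.28), ARO9 (0.12), ASN1 (0.20), HIS1 (0.036), HOM2 (0.22) and TRP4 (0.11). The change of scale itself moves all values of a contrast together.
Counts of called members moved by over 1.5 times as follows, the cause not being tested. Apart from the library totals above, shares of all genes under these settings are not given here. The counts therefore show only how the calls depend on the setting, not whether members exceed other genes. Against a log2 change of 0.5, 8, 11 and 11 members passed in aged against young msn2 msn4, msn2 and WT, 1 and 0 in young msn2 msn4 and msn2 against WT, 0 and 2 in aged msn2 msn4 and msn2 against WT, 2 in aged msn2 msn4 against msn2, and 1, 0 and 2 for age effects in msn2 msn4 minus WT, msn2 minus WT and msn2 msn4 minus msn2. Library totals gave 13 in aged msn2 msn4 against msn2 and 3 and 5 for age effects in msn2 msn4 minus WT and msn2 minus WT. Thinning gave 3 and DESeq2 9 for msn2 msn4 minus WT, and DESeq2 4 for young msn2 msn4 against msn2. With a library left out, counts ran from 16 to 34 in aged msn2 msn4 against msn2, 19 to 31 in aged msn2 msn4 against WT, 10 to 18 in aged msn2 against WT, 5 to 10 in young msn2 against WT and 4 to 10 for msn2 minus WT.
Replicate numbers did not pair the samples as a whole: residuals of 45 same-number pairs had a median correlation of -1e-04, and 13 were over 0.1. Among young cells, replicate 2 gave 0.283 for msn2 and WT, 0.2 for msn2 msn4 and WT and 0.312 between the mutants. Replicate 1 gave 0.125, -0.33 and -0.128 in that order, and replicate 3 gave 0.034, 0.092 and 0.36. Between aged and young cells, replicates 1 to 3 gave 0.105, 0.29 and 0.086 in WT. They gave 0.034, -0.032 and -0.266 in msn2, and 0.128, -0.195 and 0 in msn2 msn4. Pairing within the young samples alone, or within 1 strain alone, was not tested. With the replicate number as a block, 15 of 247 calls were lost and the age effect in msn2 minus WT gave 5 members in place of 9. Thinning to the smallest total, done in 1 random draw with the fit repeated, ended 49 of 247 calls. Other draws were not tested.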
